A study of Homo sapiens with 36 samples.

Results

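The comparison described here is that of PCIF1-depleted BE(2)-C cells with and without all-trans retinoic acid (ATRA), site by site, across the adenosine methylation positions that both deposited BE(2)-C tables list. BE(2)-C is an established human neuroblastoma line, labelled wild type, and all cells compared had received an siRNA against Pcif1 (siPcif1) for 24 hours. One group (siPcif1 + ATRA, 3 libraries) was then grown for 4 days in 10 µM ATRA, renewed daily. The other (siPcif1 - ATRA, 3 libraries) had no ATRA, and the table that holds it is named for DMSO. The same cells with a scrambled siRNA (siScram), 3 libraries with and 3 without ATRA, were used only to ask whether the ATRA difference depended on the siRNA. Libraries were made from total RNA by m6ACE, an antibody method that maps N6-methyladenosine and its cap-adjacent relative to single bases. The labels do not say when the cells without ATRA were harvested, so ATRA and time since transfection cannot be told apart. Nor do they say whether replicates were separate cultures, and p-values may then measure only technical spread.

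The members are the 7800 sites that share chromosome, position and strand between the table with ATRA (21031 sites, of which 37.1% are shared) and the table without it (22855 sites, 34.1% shared). A site is listed in a table only if the authors called it in at least 1 of the siRNA groups there. Gene, region and motif annotation were the same in both tables at all 7800 sites, which fall in 2219 genes. Coding sequence holds 4369 of them, 3′UTRs 1761, 5′UTRs 1263, introns 52, non-coding transcripts 105, their introns 20, and 230 have no annotation. Sites in 5′UTRs were shared more often (60.0% of those with ATRA and 58.8% of those without) than coding sites (35.3% with ATRA and 30.3% without).

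In messenger RNA, N6-methyladenosine (m6A) is placed by the METTL3 and METTL14 complex, mostly within the DRACH motif of coding sequence and 3′UTR (D is A, G or T, R is A or G, H is A, C or T). A chemically related mark, m6Am, sits on the first transcribed base next to the cap when that base is an adenosine, and PCIF1 is the enzyme that places it. Antibodies against m6A bind both marks, so m6Am appears as 5′UTR signal outside DRACH. ATRA binds retinoic acid receptors and drives neuroblastoma cells to stop dividing and extend neurites. The measure is the authors' relative methylation level (RML), a ratio per site and library that is neither an expression level nor a stoichiometry. In bulk RNA, methylation in fewer cells and less methylation in each cell cannot be told apart.

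Sequence around the sites that lie close to an annotated start shows what kind of position they are. Each line gives 25 bases 5′ to 3′ on the plus strand of GRCh38.p14 (RefSeq promoter windows), with the 5-base motif in capitals and the methylated adenosine as its middle letter. The first 3 are among the sites with the smallest p in the direction of higher values with ATRA, TBL3 is one where that difference was furthest from siScram, and CPSF6 and RPS15 represent gene lists described later.
DBH, chr9:133636351-133636375, adenosine at the start base: accagagagcTCACCccagccatgc
EIF3K, chr19:38619174-38619198, 2 bases before it: tccgtttccaCCACCtcttcctgtt
SYT11, chr1:155859555-155859579, at the start base: catccttagcTCAGCgcatccccgg
TBL3, chr16:1972043-1972067, 2 bases after it: tgacgccatcGCAGCgcgccgggag
CPSF6, chr12:69239587-69239611, 30 bases after it: gccgcggcggGCAGAcctgcaggag
RPS15, chr19:1438391-1438415, 7 bases after it: cggaccaaagCGATCtcttctgagg

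The next 5 lines are start-proximal sites from among the 10 of highest RML in PCIF1-depleted cells with ATRA. POP4 encodes a subunit of RNase P, TIMM17A a mitochondrial import translocase subunit, TUBB4B a beta tubulin, PSMC4 a proteasome ATPase and CHCHD1 a mitochondrial ribosome protein.
TIMM17A, chr1:201955491-201955515, at the start base: agcttgcccgGCATCactcgcggca
CHCHD1, chr10:73782038-73782062, 2 bases after it: gcacggaaccGCAAAgcctgccggg
POP4, chr19:29606271-29606295, at the start base: acagcagctgCCAGTgcgtcatcag
TUBB4B, chr9:137241275-137241299, at the start base: agcgtcggttGTAGCactctgcgcg
PSMC4, chr19:39971153-39971177, at the start base: ggaagcggtgACAGAtcatcccagg
Most of the 11 windows carry a pyrimidine before the adenosine, the context in which start-site signal was most frequent: of 283 5′UTR sites outside DRACH that coincide with an annotated start base, 78.1% follow a C.

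The levels as deposited set the siPcif1 libraries of the 2 tables apart. At shared sites the median RML was 4.32, 3.55 and 2.94 in siPcif1 libraries 1, 2 and 3 with ATRA, against 1.69, 2.08 and 1.90 without. On the log2 scale the library medians averaged 1.83 ± 0.28 with ATRA and 0.91 ± 0.15 without (SD, n = 3 each), a difference of 0.92, or 1.89-fold. All 3 libraries with ATRA were above all 3 without (exact two-sided permutation p = 0.1, the smallest that 3 against 3 allows). The siScram libraries of the same tables differed by 0.16, with medians of 2.65, 4.17 and 2.86 with ATRA and 2.05, 3.09 and 3.60 without, and these overlapped. The formula of RML and its scaling between libraries and tables are stated neither in the labels nor in the file headers, so a global ATRA difference and a difference in scaling cannot be told apart. Each library was therefore divided by its own median, and every value below is this relative RML, in which 1 is the median shared site of that library, or its log2.

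One library stood apart before any comparison. Replicate 3 with ATRA had a wider spread of log2 relative RML (SD 1.35 over sites) than replicates 1 and 2 (1.11 and 1.10) and the 3 libraries without ATRA (1.16 to 1.22). Its rank correlation was higher with the siScram library 1 with ATRA (Spearman 0.951) than with its own replicates (0.899 and 0.930). Rank correlations over the 7800 sites were 0.899 to 0.930 among libraries with ATRA, 0.904 to 0.918 among those without and 0.869 to 0.901 between the groups. Where replicate 3 moved medians over classes, lists and genes by over 1.5 times, many are also given without it.

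PCIF1 itself has no shared site, and RML is no measure of its transcript. The depletion could be read only at 5′UTR sites outside DRACH, the class in which its mark appears. That class is wider than its substrates, since 28.5% of its sites with a known distance lie at an annotated start base. The median 5′UTR site outside DRACH stood at 1.29 ± 0.18 log2 units above the library median in siPcif1 and 1.59 ± 0.12 in siScram with ATRA, and at 1.22 ± 0.03 in siPcif1 and 1.46 ± 0.05 in siScram without it (SD, n = 3 each). With ATRA the siPcif1 libraries gave 1.17, 1.22 and 1.496, and the siScram libraries 1.72, 1.57 and 1.49. They overlapped there, where replicate 3 of siPcif1 lay just above the lowest siScram library. Without ATRA they did not overlap.

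The main site classes kept 1 order with and without ATRA: 5′UTR sites outside DRACH, coding DRACH sites, 3′UTR DRACH sites, 3′UTR sites outside DRACH and coding sites outside DRACH, from high to low. Among 5′UTR sites outside DRACH, those after C stood highest, with class medians of 1.32, 1.38 and 1.65 log2 units in the libraries with ATRA, against 1.30, 1.44 and 1.39 without. Those after T had 1.11, 1.08 and 1.36 with ATRA and 1.10, 1.26 and 1.19 without, and those after G had 0.42, 0.35 and 0.42 with ATRA and 0.46, 0.43 and 0.45 without. Only the G class did not overlap between groups, at a difference of -0.05 (exact permutation p = 0.1). The 43 intronic sites outside DRACH had a median of 1.46 ± 0.20 with ATRA and 1.53 ± 0.16 without. Their difference went from -0.07 to -0.15 when replicate 3 was left out. That of the C class went from 0.07 to -0.03, and that of the T class from -0.004 to -0.09. The 5′UTR class as a whole (1209 sites) differed by 0.07 with ATRA, and by -0.03 without replicate 3.

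Within 100 bases after the annotated start, levels of 5′UTR sites outside DRACH stepped down with distance in both groups. Distance was counted along the genome from 1 RefSeq start per gene, so it can span introns, and other starts were not considered. Sites at the annotated start base (283 of the 992 with a known distance, 28.5%) had a median of 1.88 ± 0.24 with ATRA and 1.85 ± 0.01 without. Sites 1 to 10 bases after it (171) had 1.41 ± 0.18 with ATRA and 1.47 ± 0.09 without, and sites 11 to 50 bases after it (196) had 0.54 ± 0.10 with ATRA and 0.45 ± 0.02 without. From 51 to 100 bases (34 sites) the medians were near that of all sites, at -0.09 ± 0.10 with ATRA and 0.18 ± 0.14 without, and the libraries did not overlap (difference -0.26, and -0.30 without replicate 3). Sites farther along the genome, which need not be farther from the cap, did not follow the steps. The 87 between 100 and 500 bases had -0.06 ± 0.16 with ATRA and 0.10 ± 0.07 without. The 102 beyond 500 bases had 1.42 ± 0.18 with ATRA and 1.38 ± 0.08 without. The 119 upstream of the start had 1.33 ± 0.23 with ATRA and 1.29 ± 0.08 without. Leaving out replicate 3 moved the differences, from 0.03 to -0.11 at the start base and from -0.06 to -0.17 at 1 to 10 bases. At 11 to 50 bases the move was from 0.09 to 0.04, and between 100 and 500 bases from -0.16 to -0.09. Beyond 500 bases it was from 0.04 to -0.06, and upstream from 0.04 to -0.08. Start-base sites were higher at the unadjusted limit of limma, 0.05, in 31 cases (11%) and lower in 16 (5.65%), beside 7.38% and 6.31% of all shared sites.

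Internal sites, inside and outside the DRACH motif of the METTL3 complex, were described by class as well. 3′UTR DRACH sites (839) stood at 0.19, 0.26 and 0.48 log2 units in the libraries with ATRA, against 0.17, 0.16 and 0.11 without. The groups did not overlap, the difference was 0.16 (exact permutation p = 0.1, adjusted p = 0.6 over 15 classes), and without replicate 3 it was 0.07. In siScram this class differed by 0.24 (exact permutation p = 0.1). Coding DRACH sites (1150) stood at 0.36 ± 0.17 with ATRA and 0.31 ± 0.04 without, and coding sites outside DRACH (3219) at -0.54 ± 0.18 with ATRA and -0.44 ± 0.01 without. The coding classes had differences of 0.05 and -0.10, which were -0.04 and -0.0018 without replicate 3. 5′UTR sites inside DRACH (54) gave 0.40, 0.53 and 0.92 with ATRA and 0.39, 0.41 and 0.24 without, a difference of 0.27, or 0.12 without replicate 3. No class could fall under the exact permutation p of 0.1 with 3 libraries a group, and replicate 3 with ATRA was the outermost library in the 6 classes of coding, 5′UTR and 3′UTR sites. The distance between cap-proximal and internal sites overlapped between the groups. 5′UTR sites outside DRACH lay 0.95 ± 0.02 above internal DRACH sites with ATRA and 0.97 ± 0.05 above them without (exact permutation p = 0.6).

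**Figure D1:**
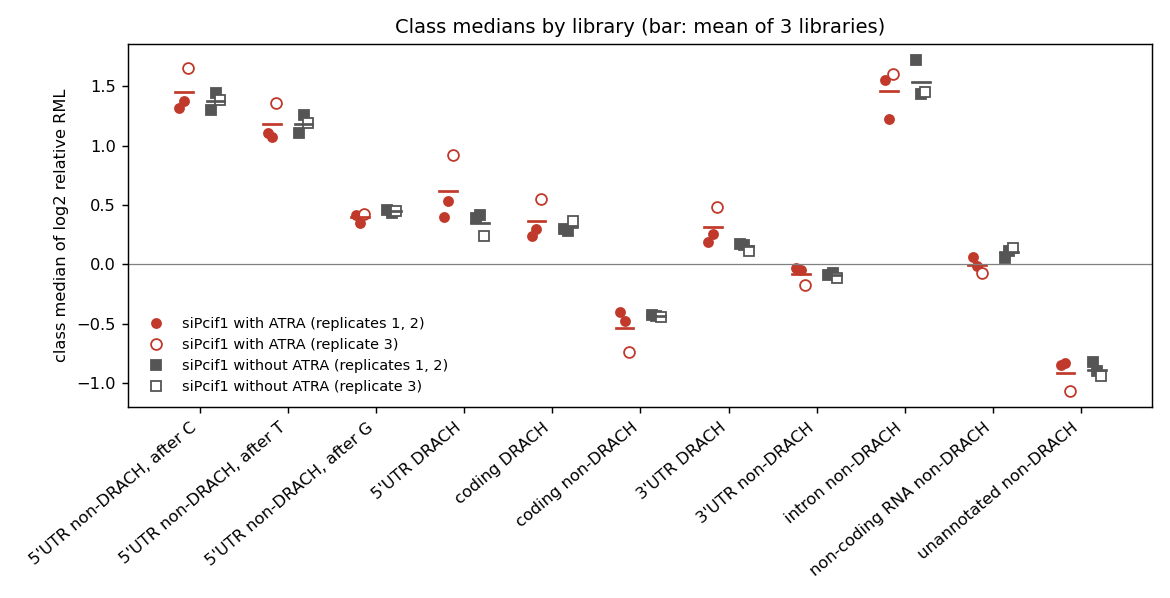
Class medians of log2 relative RML (vertical axis) in each siPcif1 library with ATRA (circles, left of each pair) and without (squares, right), with a bar at the mean of 3 libraries. 5′UTR sites after C and intronic sites stand highest and unannotated sites lowest in both groups, and the open circle, replicate 3 with ATRA, is often the outermost point.

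**Figure D2:**
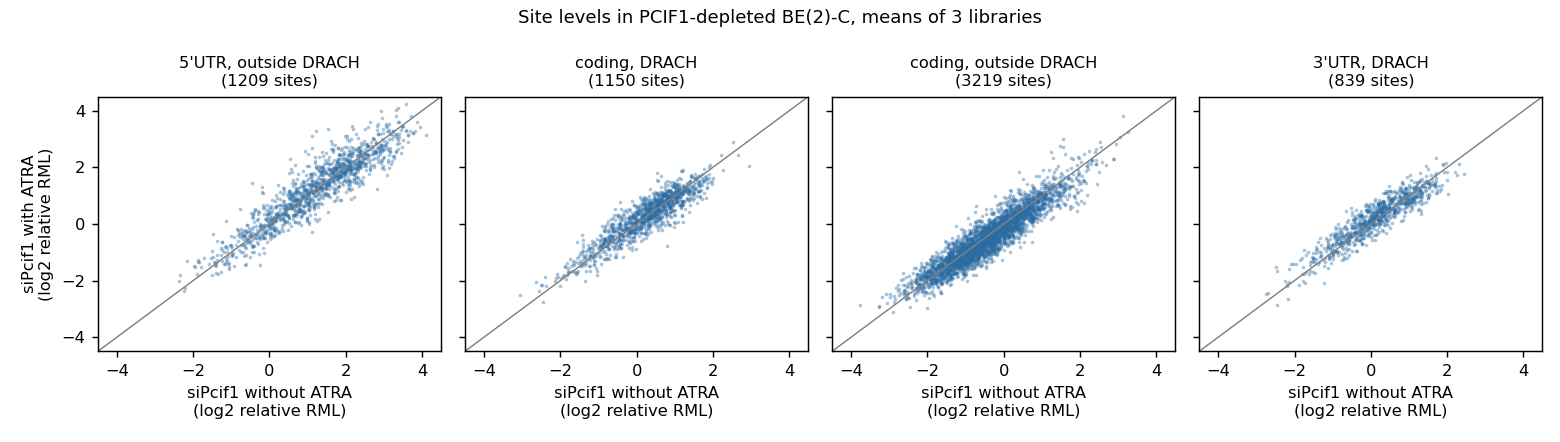
Mean log2 relative RML of each site over 3 libraries with ATRA (vertical) against 3 without (horizontal), for the 4 named classes, with the line of equal levels. Sites keep to the line in each class, and 98.4% of all shared sites lie within 1 log2 unit of it.

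No single site passed the test across all shared sites. limma on log2 relative RML gave 0 sites higher and 0 lower with ATRA at an adjusted p of 0.05 (0% of 7800 in each direction, smallest adjusted p 0.0763). At an unadjusted p of 0.05 there were 576 higher (7.38%) and 492 lower (6.31%). That balance turned with the centring, to 325 higher and 608 lower when libraries were centred on DRACH sites of coding sequence and 3′UTR, and with the choice of sites, to 279 higher and 397 lower among those the authors called in siPcif1 in both tables. All 3 libraries with ATRA lay above all 3 without at 838 sites (10.7%) and below at 790 (10.1%). Differences ran from -1.60 to 2.06, 81.0% of sites were within 0.5 and 98.4% within 1, and 128 sites exceeded 1. The median 95% interval of a site, not adjusted for the number of sites, reached 0.54 to either side. The adjusted limit is stricter, and even the difference of 2.06 did not pass it, so differences well above 0.54 could go undetected.

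The 2 smallest adjusted p belonged to sites outside the rule by which the other sites were named, and these were picked after their values were seen. A GGACA site, a DRACH form, in the coding sequence of MRFAP1 (chr4:6641044, plus strand), which encodes a partner of the MORF4 family of chromatin proteins, had relative RML of 0.641, 0.533 and 0.568 with ATRA and 1.78, 2.10 and 1.41 without. The difference was -1.59 ± 0.22 (SE, limma adjusted p = 0.0763), and in siScram it was -0.21. The message as a whole did not follow this site: over all 21 MRFAP1 sites the median difference was 0.03, with 12 above and 9 below 0. A CCAGG site in the 3′UTR of H2AFX (chr11:119094485, minus strand), the gene of a histone variant that marks DNA breaks, had 0.885, 0.879 and 0.855 with ATRA and 0.293, 0.328 and 0.392 without. Its difference was 1.38 ± 0.19 (limma adjusted p = 0.0763), with 1.52 in siScram.

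The rule named 8 sites in the direction of higher relative RML with ATRA. It required groups that do not overlap, and none of the 8 passed the adjusted limit. Of these, 5 lie in 5′UTRs outside DRACH. The POLR2J site (chr7:102478922, motif TTATT), in a subunit gene of RNA polymerase II, had 4.20, 4.74 and 6.03 with ATRA and 1.20, 1.40 and 1.78 without, a difference of 1.77 ± 0.27 (limma adjusted p = 0.109). The DBH site, on the start base printed above, had 1.70, 2.23 and 2.48 with ATRA and 0.769, 0.871 and 1.04 without. DBH makes noradrenaline from dopamine and marks adrenergic neuroblastoma, and its difference was 1.25 ± 0.24 (adjusted p = 0.158, limma). Its other 5 sites had a median difference of 0.21, with 4 above and 1 below 0. In siScram the named POLR2J and DBH sites differed by 1.00 and 1.20, also without overlap.

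The SYT11 start-base site, in the gene of a synaptotagmin of vesicle traffic, had 3.71, 4.25 and 4.804 with ATRA and 1.10, 2.06 and 1.74 without. This site differed by 1.51 in siScram, also without overlap. The other 14 SYT11 sites went the other way on balance in siPcif1, with a median of -0.27 and 12 of them below 0. EIF3K, a translation initiation factor subunit, had 1.83, 2.63 and 2.23 with ATRA and 1.04, 1.04 and 0.601 without at its start-proximal site, its single shared site. This site was also among the 20 called higher with ATRA in siScram, where its difference was 2.63, against 1.35 in siPcif1.

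COMMD1, which codes for a copper homeostasis protein, had the largest mean difference and the largest SE of these sites, with 9.52, 10.9 and 6.11 with ATRA and 1.31, 2.18 and 3.48 without (chr2:61905674, annotated 5′UTR, difference 2.00 ± 0.39). In siScram the COMMD1 difference was -0.87. A 3′UTR site of CDKN1B (chr12:12721323, GGAAG), the gene of the cell cycle inhibitor p27, had 1.36, 1.91 and 2.56 with ATRA and 0.626, 0.9501 and 0.536 without. Of the other 3 CDKN1B sites, 2 had differences below 0 and the median was -0.15. A coding GGACT site of C16orf72 (chr16:9116768) differed by 1.27 ± 0.25, while the other 3 sites of that gene lay between -0.13 and -0.03. In siScram the named CDKN1B and C16orf72 sites differed by 1.14 and 0.75, both without overlap. A 3′UTR site of CD99L2 (chrX:150768665), a CD99-like surface protein, had 1.58, 1.41 and 1.85 with ATRA and 0.705, 0.823 and 0.733 without, and its difference in siScram was 0.17.

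The rule also named 8 sites in the direction of lower relative RML. The CHGA site (chr14:92931473, coding, AAATA), in the gene of chromogranin A of secretory granules, had 1.76, 1.83 and 1.48 with ATRA and 4.74, 4.54 and 3.72 without, a difference of -1.36 ± 0.25 (limma adjusted p = 0.158). A CPLX2 site (chr5:175871578, annotated 5′UTR, GCAGA) had 1.10, 0.980 and 1.04 with ATRA and 2.35, 1.82 and 2.07 without. CPLX2 encodes complexin, which binds the SNARE complex in exocytosis, and its other 2 shared sites were also below 0, at -0.79 and -0.13. ATP6V0C, the proton pore subunit of the vacuolar ATPase, had 0.724, 0.979 and 0.779 with ATRA and 1.72, 3.68 and 1.65 without in its 5′UTR (chr16:2513968), and its other site differed by -1.11.

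TSPYL1, a relative of nucleosome assembly proteins, had almost equal values with ATRA, 0.637, 0.625 and 0.643, against 2.32, 1.32 and 1.56 without (chr6:116278902, coding, GAAGG). Its other 2 sites lay above 0, at 0.12 and 0.54. AMOTL1, an angiomotin family protein of cell junctions, had 1.52, 1.43 and 1.23 with ATRA and 2.73, 5.03 and 3.98 without (chr11:94799843, coding). The AMOTL1 difference was -1.45 ± 0.28 and had the same size in siScram, -1.49. PNMA1, a paraneoplastic antigen gene, and C14orf132 had 8 of 10 and 7 of 9 further sites below 0, so that the named sites went with the rest of these transcripts. The PNMA1 site differed by -1.15 ± 0.24, the C14orf132 site by -0.98 ± 0.23, and a coding site of ANKLE2, which acts in nuclear envelope reassembly, by -1.21 ± 0.27. In siScram the C14orf132 site differed by -0.61, without overlap. With overlap there, CHGA, CPLX2 and ANKLE2 had -0.92, -0.77 and -0.45, and TSPYL1, PNMA1 and ATP6V0C had -0.36, -0.24 and -0.10.

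**Figure D3:**
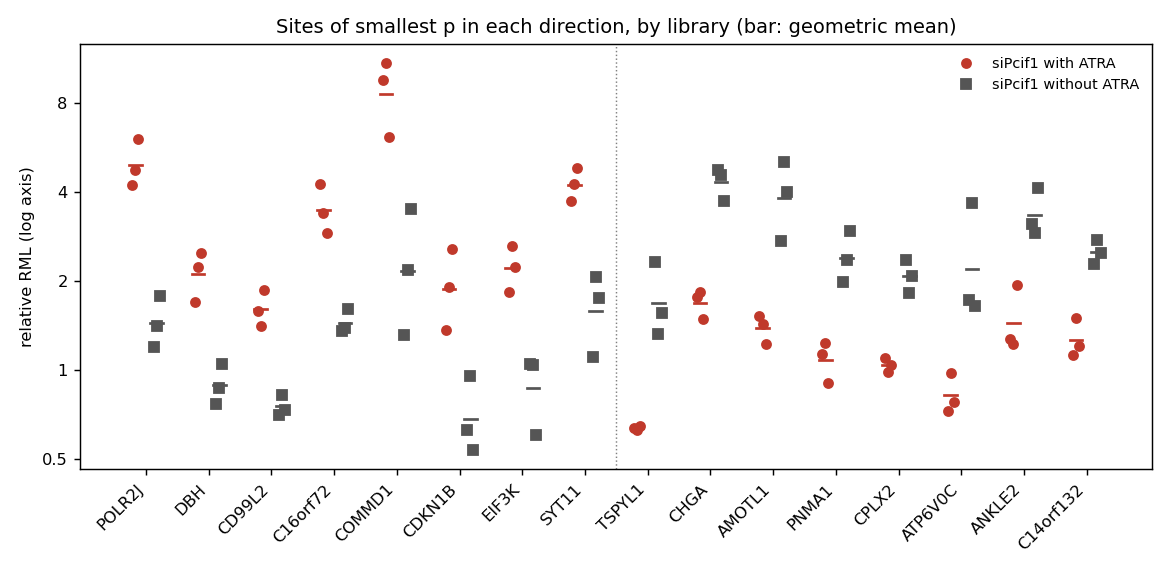
Relative RML (log axis) at the 16 named sites in each siPcif1 library with ATRA (circles, left) and without (squares, right), with the geometric mean as a bar; the dotted line parts the 8 sites higher with ATRA from the 8 lower. The libraries of the groups do not overlap at any of these sites, a property that the naming rule required.

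Genes tied to retinoic acid and to neuroblastoma were looked up wherever they had a shared site. MYCN, the amplified oncogene of this line's tumour type, had 73 shared sites on its primary locus with a median difference of 0.08, or 0.20 without replicate 3, of which 43 were above and 30 below 0. Its site of smallest p, a GGACA in the 3′UTR (chr2:15946115), had 0.934, 1.46 and 1.88 with ATRA and 0.612, 0.684 and 0.633 without, a difference of 1.09 ± 0.26 (limma adjusted p = 0.202) that was 0.86 without replicate 3. The one shared site of RARA, the retinoic acid receptor alpha gene, had 1.10, 0.792 and 1.17 with ATRA and 1.07, 1.10 and 0.817 without, and the groups overlapped. A 3′UTR site of RET, a receptor tyrosine kinase of neural crest cells, had 0.533, 0.888 and 0.807 with ATRA and 0.867, 1.43 and 0.833 without, which also overlapped. MAP2 and MAP1B, microtubule-associated proteins of neurites, differed by -0.73 ± 0.23 and -0.68 ± 0.19 at coding sites whose libraries did not overlap (adjusted p of 0.244 and 0.224, limma). In siScram the named MYCN and MAP1B sites differed by 1.36 and -0.82, both without overlap. Those of MAP2, RARA and RET differed by 0.32, -0.13 and 0.53 there, with overlap. PCF11, METTL3, FTO and RARB had no shared site.

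Averaging the sites of each gene gave 1107 genes with 2 or more shared sites. limma called 0 of them higher and 0 lower (0%, smallest adjusted p 0.165), and at the unadjusted limit 60 (5.42%) were higher and 52 (4.7%) lower. The median SE of a gene was 0.17. TMEM203, a small membrane protein gene with 7 shared sites, had gene means of 1.76, 1.61 and 1.76 with ATRA and 1.08, 1.11 and 1.06 without, a difference of 0.65 ± 0.14. SLC10A4, a transporter-like protein of synaptic vesicles with 3 sites, had 0.854, 0.9754 and 0.824 with ATRA and 0.606, 0.596 and 0.619 without. PDIA6, a disulfide isomerase of the endoplasmic reticulum, EXOSC6, a subunit of the RNA exosome, and PSAT1, an enzyme of serine synthesis, had differences of 0.45, 0.56 and 0.49.

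On the lower side, HYOU1, a chaperone of the endoplasmic reticulum with 9 sites, had 1.16, 1.08 and 0.935 with ATRA and 1.65, 1.801 and 1.49 without, a difference of -0.64 ± 0.15 (limma adjusted p = 0.173). CPLX2 had a gene difference of -0.64 ± 0.17 over its 3 sites. PGAM1, a glycolytic mutase, had 0.672, 0.818 and 0.576 with ATRA and 0.937, 0.931 and 1.05 without over 5 sites. TIMM13, a carrier of the mitochondrial intermembrane space, and EGLN2, an oxygen-sensing prolyl hydroxylase, differed by -0.40 ± 0.12 and -0.54 ± 0.16. The 10 genes so named did not overlap between groups, where 96 (8.67%) and 79 (7.14%) of all genes tested did not overlap upward and downward.

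Transcripts with many sites showed whether a whole message moved. The granin genes CHGB and SCG2, whose proteins fill secretory granules, had 82 and 80 sites with median differences of -0.18 and -0.20. Of these, 60 and 57 were below 0. Without replicate 3, however, the medians were 0.02 and 0.06, so this direction rested on that library. For CHGA, 36 of its 42 sites on the primary locus were below 0, the median was -0.24, and without replicate 3 it was -0.22. Its gene means, over 64 sites that include copies on an alternate contig, were 0.767, 0.8151 and 0.768 with ATRA and 0.992, 0.969 and 0.8153 without, so the groups barely parted (limma adjusted p = 0.561), and the gene difference in siScram was -0.00089.

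Other messages with many sites lay on both sides of 0. PTMS, coding for parathymosin, had 26 of 28 sites below 0 with a median of -0.33, or -0.15 without replicate 3. EEF2, the translation elongation factor, had 23 of 27 above 0 with a median of 0.28, or 0.33 without replicate 3. In siScram the medians of PTMS and EEF2 were -0.20 and 0.81. GATA2, a transcription factor of the adrenergic state, had a median of 0.12 over 46 sites, and its gene means were 0.811, 0.832 and 0.826 with ATRA and 0.758, 0.759 and 0.747 without, which did not overlap. TUBB, a beta tubulin with 80 sites of which 10 are on the primary chromosome and the rest on alternate copies of it, had a gene difference of -0.02 ± 0.14. Ribosomal protein, tubulin and actin genes, NPM1, PTMA and POLR2J have near-identical copies elsewhere in the genome, and how reads were divided among copies is not stated, so the values of their sites are uncertain. Over all shared sites 52.2% were below 0. Sites of 1 gene share transcripts and are no replicates, so the counts by gene describe the messages and carry no test.

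**Figure D4:**
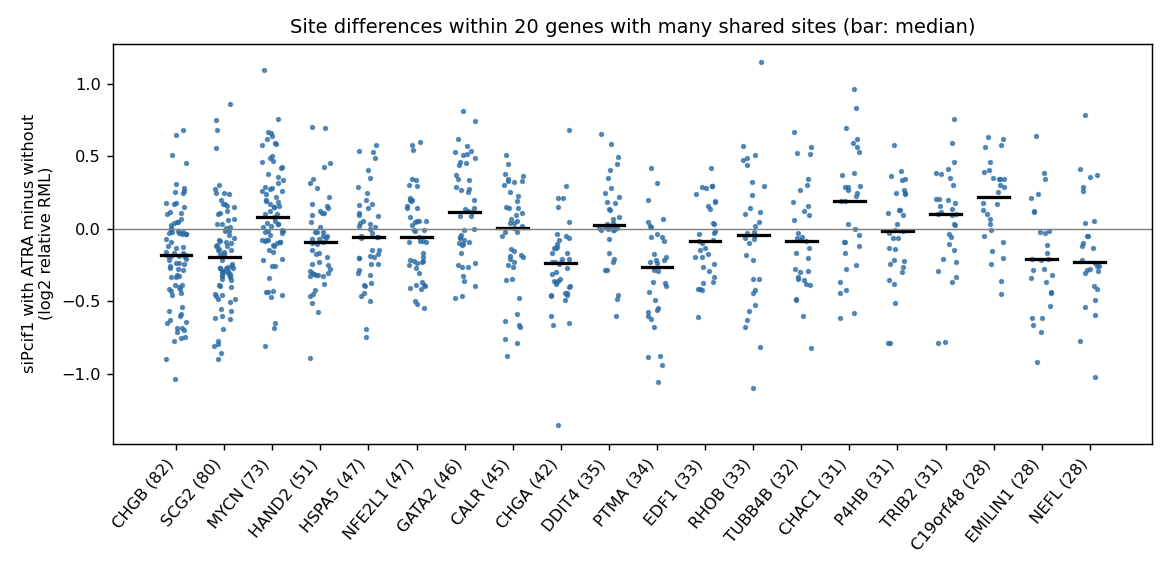
Differences in log2 relative RML, siPcif1 with ATRA minus without (vertical axis), at each site of 20 genes with many shared sites on primary chromosomes (site number in brackets), with the gene's median as a bar. PTMA, CHGA, NEFL, EMILIN1, SCG2 and CHGB have medians below -0.18, while CHAC1 and C19orf48 have medians above 0.19. Without replicate 3 with ATRA these are -0.11 for PTMA, -0.03 for NEFL, 0.02 for CHGB, 0.06 for SCG2 and 0.09 for CHAC1.

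The gene lists gave 0 sites past the adjusted limit in limma, and the background median over all 7800 sites was -0.02, with 7.38% higher and 6.31% lower at the unadjusted limit. Neurite and neuronal cytoskeleton genes (183 sites in 21 genes) had a median of -0.23, with 26 sites lower (14.2%) and 6 higher (3.28%), and -0.10 without replicate 3. Within it a coding site of the neurofilament gene NEFL had 0.369, 0.439 and 0.288 with ATRA and 0.707, 0.862 and 0.641 without, and a coding site of INA, the internexin gene, had 0.533, 0.442 and 0.475 with ATRA and 0.814, 0.810 and 1.06 without. Neither pair overlapped, and the adjusted p were 0.173 and 0.202 in limma. The other 4 INA sites had a median difference of 0.04, with 2 above and 2 below 0. Of the other 27 NEFL sites 19 were below 0, but without replicate 3 the median of all 28 was -0.03. The named NEFL and INA sites differed by -0.22 and -0.03 in siScram, with overlap. In siScram the list's median was 0.06.

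Nucleolar ribosome biogenesis genes (45 sites in 14 genes) had a median of -0.22, with 8 lower (17.8%) and 2 higher, and -0.13 without replicate 3. NCL and NPM1, the abundant nucleolar phosphoproteins nucleolin and nucleophosmin, contributed its sites of smallest p, at -1.17 ± 0.27 and -0.998 ± 0.31. Without replicate 3 these were -0.88 and -0.62. Both genes went the same way at most of their sites, with 15 of 18 further NCL sites and 9 of 10 further NPM1 sites below 0. Without replicate 3 the counts were 10 and 8, and the medians of these further sites were -0.06 and -0.19, against -0.22 and -0.54 with it. Over all shared sites 52.2% were below 0. Sites of NCL and NPM1 make up much of the list's 45, so these genes weigh heavily in its median. The list's median in siScram was -0.35.

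Another 3 lists had medians that lay within 0.1 of 0 and came close to it or crossed it without replicate 3. Adrenergic regulators and markers (450 sites in 20 genes) had -0.10, and 0.00 without it (37 sites higher, 40 lower at the unadjusted limit). Of these sites 428 lie on primary chromosomes, and copies on alternate contigs, such as those of CHGA, were counted again. Retinoic acid response genes (33 sites in 9 genes) had -0.08, and 0.03 without replicate 3. In that list 2 sites, of which 1 is the CDKN1B site described above, were higher at the unadjusted limit and none was lower. Mesenchymal markers (34 sites in 4 genes) had 0.00 and 0.04 without it. Their lowest p were at a 5′UTR site of THY1, a surface glycoprotein, at 0.86 ± 0.26, and at a coding site of TWIST1, a transcription factor of the mesenchymal state, at 0.55 ± 0.25.

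Glycolysis genes (46 sites in 12 genes) had -0.18, but 0.02 without replicate 3, with PGAM1 and PKM, the pyruvate kinase gene, lowest at -0.77 ± 0.22 and -0.57 ± 0.21. Cytosolic ribosomal protein genes (209 sites in 43 genes) had -0.12, and 0.08 without it. Single sites of RPS15, on the start-proximal base printed above, and of RPL13, in a 3′UTR GGACT, had 0.89 ± 0.19 and 0.95 ± 0.23, with no overlap between groups, and with a pseudocount RPL13 had 0.42. Cell cycle and replication genes (21 sites in 11 genes) had 0.16, and 0.22 without it: 15 sites were above 0 and 1, in the MCM3 3′UTR of a replicative helicase subunit, passed the unadjusted limit at 0.50 ± 0.22. MCM2, another subunit of that helicase, had 0.45 ± 0.21.

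The remaining lists bear on the enzymes of the marks and on transcription. m6A and m6Am machinery genes (44 sites in 9 genes) had a median of -0.01, and -0.03 without replicate 3, with 2 sites higher and 2 lower. RBM15B, an adaptor of the writer complex, had 1.42, 1.86 and 1.58 with ATRA and 1.12, 1.16 and 1.08 without at its site of smallest p. That of HNRNPA2B1, an RNA-binding protein proposed as a reader, had 0.865, 0.721 and 0.691 with ATRA and 1.18, 1.00 and 0.993 without. Their adjusted p were 0.309 and 0.327 in limma. The other 7 RBM15B sites had a median difference of -0.08, and the other 4 HNRNPA2B1 sites 0.03. In siScram the named RBM15B and HNRNPA2B1 sites differed by -0.05 and 0.12, with overlap. Cleavage, polyadenylation and termination genes (19 sites in 6 genes) had -0.05. CPSF6, of cleavage factor I, was high and higher with ATRA at its 5′UTR site, with 6.63, 5.32 and 6.997 against 2.91, 3.73 and 3.00 without, and PPP1CA, a phosphatase catalytic subunit, had -0.54 ± 0.22. Chromatin regulators (34 sites in 21 genes) had -0.15, and -0.05 without replicate 3, and sites of SMARCA4, a remodeller ATPase, and NSD1, a histone methyltransferase, had 0.76 ± 0.23 and 0.64 ± 0.23.

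Motif, beyond DRACH, was compared by the medians of the 5-base contexts. GGACT (631 sites), the most frequent, stood at 0.15, 0.20 and 0.56 with ATRA and 0.14, 0.13 and 0.18 without, so the groups overlapped. Its difference of 0.16 was 0.03 without replicate 3. CCAGG (156 sites) stood at -0.27, -0.24 and -0.10 with ATRA and -0.53, -0.44 and -0.53 without. CCAGC (122 sites) stood at -0.46, -0.39 and -0.25 with ATRA and -0.59, -0.66 and -0.58 without. Both motifs were separated in all libraries, by 0.30 and 0.24, and by 0.25 and 0.19 without replicate 3. Of the 21 motifs with 84 or more sites, 6 were separated upward and 0 downward. This count holds for centring on all shared sites. Centring on DRACH sites of coding sequence and 3′UTR lowers every difference alike, that of the POLR2J site from 1.775 to 1.684. Under that centring the difference of 5′UTR sites outside DRACH went from 0.072 to -0.019. The smallest of the 6 upward motif differences, 0.07 and 0.08 below, are of that size, so their direction rests on the centring. The next, 0.10, is little larger than the lowering. Whether the libraries of any motif would still be separated under that centring was not tested. At the unadjusted limit, 27 CCAGG sites were higher (17.3%) and 4 lower, and 22 CCAGC sites were higher (18.03%) and 3 lower. The siScram differences of these motifs were 0.20 and 0.27. The other 4 separated motifs differed less: GCAGG by 0.10, GGACC by 0.17 (0.07 without replicate 3), CCATG by 0.07 and GCAGC by 0.08.

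Whether the ATRA difference depended on PCIF1 depletion was tested as the difference of the 2 within-siRNA differences, over all 12 libraries. limma called 0 sites higher and 0 lower in siPcif1 than in siScram (0%, smallest adjusted p 0.31), with 207 (2.65%) higher and 391 (5.01%) lower at the unadjusted limit. These counts moved with the processing, to 226 higher and 245 lower with DRACH centring, 200 and 213 with a stricter level filter, and 252 and 791 with a pseudocount. In siScram alone limma called 20 sites higher (0.256%) and 1 lower (0.0128%) with ATRA. Of the 20, 7 are copies of one CTAGT position in 28S ribosomal RNA and count as 1 measurement, which leaves 14 positions higher. All 15 positions had the same sign in siPcif1, and 10 of them passed the unadjusted limit there, the CTAGT position not among them. Across sites the differences in siPcif1 and siScram correlated at 0.44 (Pearson, 7800 sites), and at 0.37 without replicate 3 of siPcif1 and replicate 1 of siScram with ATRA. The siRNA groups share no library, but they share both tables, and sites of a gene share transcripts, so this is a description. Of the 576 sites higher at the unadjusted limit in siPcif1, 81.2% had the same sign in siScram, where 51.5% of all sites had it. Of the 492 lower, 83.3% had it, against 48.5% of all sites. With replicate 1 with ATRA left out of the siScram differences, the shares were 76.7% against 54.8% and 75.8% against 45.2%.

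Sites where the siRNAs differed most lie on both sides. FOXRED1, a mitochondrial complex I assembly factor, had 3.75, 5.44 and 2.82 with ATRA and 1.503, 1.62 and 1.31 without in siPcif1 at a 5′UTR GCAGT (chr11:126269171), a difference of 1.39, with -1.44 in siScram. TBL3, a nucleolar processing factor, had 10.4, 15.9 and 6.58 with ATRA and 4.70, 3.48 and 1.52 without at its start-proximal site, a difference of 1.82, with -0.82 in siScram. The 3′UTR site of SLC35B4, a nucleotide sugar transporter, overlapped in siPcif1, and its difference of 0.36 stood against -1.93 in siScram. In the other direction, RAVER1, an RNA-binding splicing regulator, had -0.24 in siPcif1 and 1.49 in siScram, and DDX42, a splicing helicase, had -0.56 in siPcif1 and 0.83 in siScram. A CTAGT site of RNA45S5, a ribosomal RNA precursor on an unplaced contig, had 0.39 in siPcif1 and 2.26 in siScram. These 6 had limma adjusted p of 0.31 for the difference between siRNAs.

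**Figure D5:**
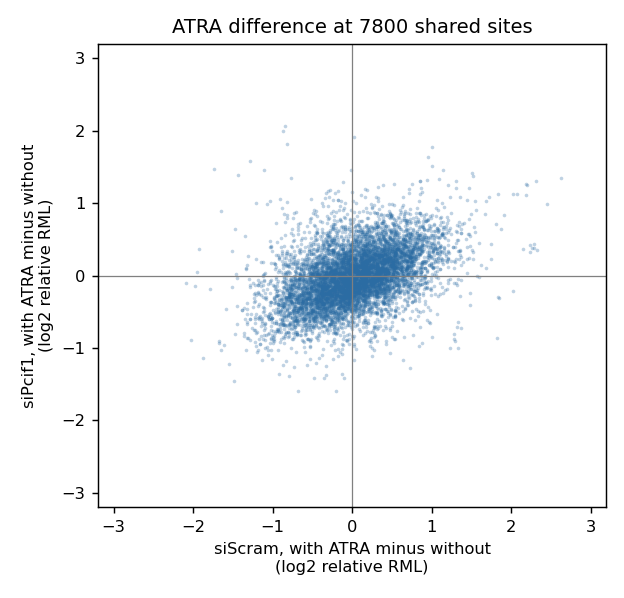
Difference in log2 relative RML with ATRA minus without, in siPcif1 (vertical axis) against siScram (horizontal axis), 1 point for each of 7800 shared sites. The cloud runs upward to the right (Pearson 0.44), and siPcif1 differences extend from -1.60 to 2.06.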

How the data were processed

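The authors deposited 1 table per BE(2)-C context with the RML as a ratio per site and m6ACE library, and DESeq2 p-values per siRNA group, per the file headers. The submitters' processing notes name bcl2fastq 2.20, cutadapt 3.7, Bowtie2, STAR, DESeq2 and hg38, with roles not given. The tables hold no separate input values and no read depth, so counting error could not be computed. Sites were joined on chromosome, position and strand, and 7800 had an RML above 0 in all libraries, so no pseudocount was added. Each library was centred on its median log2 RML over shared sites. limma 3.58.1 in R 4.3.3 (lmFit, eBayes with variance trend, two-sided, Benjamini-Hochberg over all shared sites or all genes tested, limit 0.05) compared 3 libraries with 3. It was tested on simulated data. Class medians were compared by exact permutation of libraries. Named were the 8 sites of smallest p in each direction among sites above the median level, with a gene symbol and without overlap between groups, 1 per gene, since none passed the adjusted limit; the 5 genes of smallest p in each direction with 3 or more sites and the 5 with most sites; fixed genes; the 2 members of smallest p of each list; and 3 sites in each direction of the siRNA test. Genes described for their many sites beyond these 5, and the class and motif examples, were chosen after their values were seen. Members and lists were chosen with earlier results of these data known. Gene symbols are those of the files, and 98.8% of sites with a symbol matched RefSeq. The HEK293T table was not used here, and a few genes that the rule names are not reported here.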

Additional observations from a re-analysis of the deposited data

How the results depend on the processing

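Without centring, limma called 4862 sites and 1030 genes higher and 0 lower, since the shift of the siPcif1 library medians then counts as a difference. The siRNA test then called 6 sites higher in siPcif1 than in siScram. That shift was 0.92 in siPcif1 and 0.16 in siScram, and only a part common to both siRNAs cancels in this test. With a pseudocount (the 5th percentile), 1 site was called higher (H2AFX) and 1 lower (MRFAP1). Over sites the authors called in siPcif1 in both tables, which tests fewer sites, 1 was higher (POLR2J) and 1 lower (MRFAP1). With all 12 libraries in the fit, 1 was higher (POLR2J). Leaving out 1 library at a time gave 0 sites in either direction, 0 to 2 genes higher (2 without replicate 1 with ATRA, DKK1 and DNAJB1) and 0 to 1 sites lower in the siRNA test (1 without siScram replicate 3 with ATRA, COPG1). The replicate block gave 0 sites, 0 genes and 0 in the siRNA test; the numbers do not pair the libraries (correlations of same-numbered deviations 0.027, -0.015 and 0.069). Stricter levels, no variance trend, DRACH centring and leaving out alternate contigs (chosen after seeing the data) called none either. Class differences turned sign under DRACH centring (coding DRACH -0.040, 3′UTR outside DRACH -0.084, 5′UTR outside DRACH -0.019), over sites called in both (-0.013, -0.050 and -0.0069, and 5′UTR DRACH -0.063) and uncentred (coding outside DRACH 0.82). Leaving out 1 library, the class differences ran from -0.043 to 0.11 for coding DRACH, from -0.020 to 0.052 for 3′UTR sites outside DRACH and from -0.028 to 0.14 for 5′UTR sites outside DRACH. Of 577 recomputed differences at named sites 542 kept direction and side of the limit, 23 gained a call and 12 turned sign: RARA under DRACH centring (-0.066) and in leave-one-out fits (from -0.11 to 0.20), and uncentred RET (0.44), MAP2 (0.19), MAP1B (0.24), INA (0.036), HNRNPA2B1 (0.44), PPP1CA (0.38), PGAM1 (0.15) and PKM (0.34). With the pseudocount, differences shrank by over 1.5 times at H2AFX (0.90), NEFL (-0.67), NPM1 (-0.64), RPL13 (0.42) and PKM (-0.37). Without replicate 1 with ATRA the RET difference was -0.26, and without replicate 2 of the libraries without ATRA it was -0.23 and that of TWIST1 0.31. The causes of the other changes were not tested. Having 3 libraries a group limits what can be called.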

Other observations

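Ribosomal RNA and mitochondrial positions, which the comparison by gene leaves out, were also among the shared sites. Reads cannot be assigned between the near-identical copies of the 45S ribosomal RNA gene, so sites of different copies are 1 measurement. Among 38 unannotated sites that overlap these copies on chromosome 21, a CCAAG in 28S ribosomal RNA had differences of 1.13 to 1.27 at its 3 copies in siPcif1 with ATRA minus without, with no overlap between groups (smallest limma adjusted p 0.158). An ACAGT in the same RNA had -0.58 to -0.54, also without overlap, and a TAACG had -0.01 to 0.06. The CTAGT copies of 28S, whose differences in siScram were 2.16 to 2.32, had 0.36 to 0.42 in siPcif1 and overlapped. RN7SK, the small RNA that holds P-TEFb inactive, had a CTAGG site with a difference of 0.84 ± 0.24 in siPcif1 and 1.92 in siScram. The 16 mitochondrial chromosome sites stood at -2.04 ± 0.45 log2 units with ATRA and -2.16 ± 0.21 without (SD, n = 3 each). Their difference was 0.12, and 0.38 without replicate 3.

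At the unadjusted limit, the siScram-called coding sites of ACTG1 and XBP1, a cytoskeletal actin and a transcription factor of the unfolded protein response, had differences of 0.71 and 1.13 in siPcif1 and 1.805 and 1.83 in siScram.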
